A study of Mus musculus with 2 samples.

Results

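The 15303 FoxO3 peaks described here are those of the myotube list that stood in clusters of 3 to 9 peaks. Peaks were sorted along each chromosome and joined when the gap from the farthest end so far to the next start was at most 12000 bp, and every peak of a cluster with 3 to 9 members was kept. The members were thus chosen by the positions of the authors' peak calls in the myotube library, and their number, spans and gaps are a description of that choice. This gave 3670 clusters, which held 33.7% of the 45457 myotube peaks. The study measured FoxO3 occupancy by ChIP-seq in C2C12, a mouse myoblast line that fuses into multinucleate myotubes when serum is reduced. The myoblast library came from cells in growth medium at hour -24 relative to the switch to differentiation medium, and the myotube library from cells at hour 72, both with an anti-Foxo3 antibody and with no other treatment or genetic change in the labels. The labels give the cell source of both libraries as C2C12 myoblasts, so the stage label alone separates them. There is 1 library and 1 peak list per stage, so no value below has a replicate error and no difference between stages or between kinds of cluster was tested.

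FoxO3 is a forkhead transcription factor that insulin and growth factor signalling keeps out of the nucleus, and in muscle it is best known for activating the ubiquitin ligase and autophagy genes of atrophy. MyoD is the basic helix-loop-helix factor that starts the muscle programme, and the series title links both factors to hotspots and super-enhancers. A super-enhancer is a stretch of neighbouring enhancers that is dense in bound factors, and it is usually drawn by stitching sites that lie within a set distance. The clusters here were stitched in that manner from FoxO3 peaks only, with no histone mark, MyoD or expression data, so they are groups of peaks and not called enhancers. The word hotspot is used below for the peak of highest fold in its cluster.

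The authors' peak caller gave each peak a fold enrichment, which is the ratio of reads at the summit to a local background. All folds below are the authors' values and are used to describe and rank peaks within the myotube list. The member peaks had a median fold of 8.81 (quartiles 6.95 and 12.1), against 8.59 over the whole list. The number of reads at a summit, recovered from the fold and the p-value, had a median of 19 (quartiles 14 and 27) in the members. Most folds therefore rest on few reads, and a small difference between peaks is within what counting such numbers allows. The members ranged in fold from 1.73 to 105.09, and 1135 of them (7.42%, Wilson 95% interval 7.01% to 7.84%) reached a fold of 20, where 5.88% of all myotube peaks did. Isolated peaks reached it in 6.003% of cases and pairs in 6.30%, whereas clusters of 10 to 19 did so in 4.42% and clusters of 20 or more in 0.511% (0.341% to 0.765%, 23 of 4504). The last class lowers the share over the whole list that the members are set beside. Wilson intervals here and below cover counting error only.

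Most of the clusters were small. Clusters of 3 peaks numbered 1717, which is 46.8% of all, followed by 875 of 4 peaks, 444 of 5, 272 of 6, 169 of 7, 120 of 8 and 73 of 9. The median span, from the first base of the first peak to the last base of the last, was 12856 bp (quartiles 8309 and 18978). It ranged from 647 to 60996 bp. Listed peaks covered a median of 6.63% of the span, so most of each cluster was sequence without a listed peak. The median span lengthened with each added peak, from 9514 bp at 3 peaks to 17236 bp at 5, 25542 bp at 7 and 29262 bp at 9. Dividing the median span by the number of gaps gave 4757 bp at 3 peaks and 3658 bp at 9.

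Neighbouring peaks stood close together more often than at the joining limit. The 11633 gaps between neighbours had a median of 3467 bp (quartiles 1156 and 6876). Of these, 2638 (22.7%) were under 1000 bp and 1612 (13.9%) were under 500 bp, while 2147 (18.5%) were over 8000 bp. No gap was shorter than 76 bp, which was also the shortest gap in pairs and in the larger clusters. In every further kb of gap length there were fewer gaps than in the kb before, down to 464 between 11000 and 12000 bp. The gaps in pairs had a median of 4082 bp, and those in clusters of 10 to 19 peaks 2000 bp. The joining distance bounds all of these gaps, and clusters with more peaks are reached more easily where gaps are short, so the order follows in part from the rule.

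**Figure D1:**
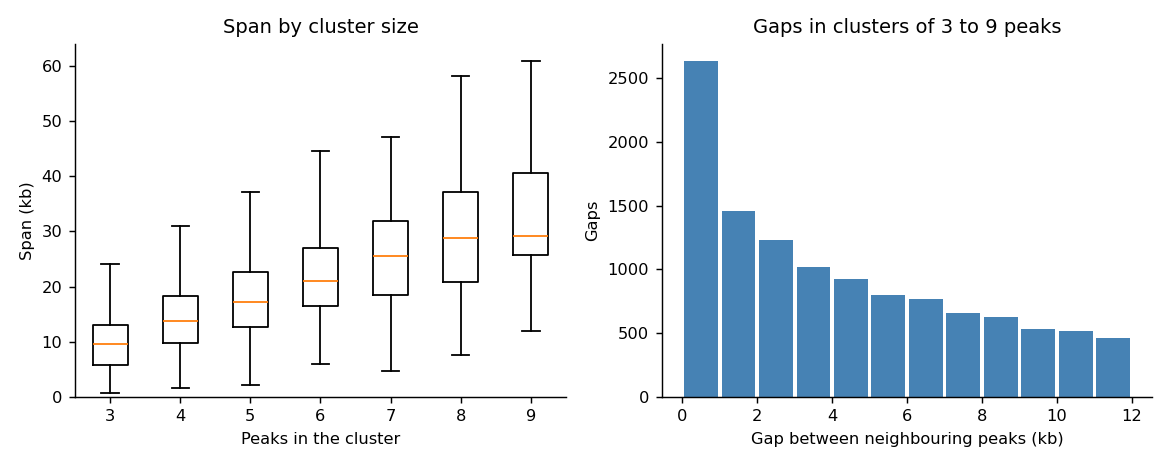
Left, span in kb by number of peaks in the cluster (box: quartiles and median, whiskers: shortest and longest). Right, number of gaps between neighbouring peaks in each kb of gap length. The median span lengthens from 9514 bp at 3 peaks to 29262 bp at 9, and the first kb holds 2638 of the 11633 gaps.

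The extremes of span show how different clusters of the same size can be. The shortest cluster of 3 lay at chr10:5151556-5152202 (mm9, as all coordinates below), where peaks of fold 7.93, 7.74 and 6.58 stood within 647 bp, with gaps of 91 and 123 bp that were each shorter than any of the 3 peaks. The longest cluster of 3 lay at chrX:131240447-131264531, over 24.1 kb, with folds of 29.74, 7.27 and 9.25 and both gaps just under the joining limit. The shortest cluster of 9 lay at chr6:145947226-145959228, over 12003 bp, with folds between 3.63 and 15.15. The longest cluster of 9, on chromosome 18, spread folds between 5.55 and 9.84 over 60996 bp. Neither of these clusters of 9 had a peak of fold 20.

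At the edges of the rule the peaks were alike in fold. In the clusters, 464 gaps lay between 11000 and 12000 bp, and the peaks that flank them had a median fold of 8.84. Another 323 gaps between 12000 and 13000 bp bounded a cluster and were left unjoined, and their flanking peaks had a median of 8.59. By size, the 73 clusters of 9 just inside the limit had a median hotspot fold of 19.34, and the 59 clusters of 10 just outside it had 20.77. The 4315 pairs, outside the lower limit, had 11.12, and the clusters of 3 had 12.90. The highest of more peaks tends to be higher, so the order of these medians follows in part from size.

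The hotspot held a moderate part of a cluster's strength. With strength taken as fold, the hotspot had a median of 39.1% of the summed fold of its cluster (quartiles 31.5% and 46.0%). Over all clusters together the hotspots, which are 24.0% of the peaks, held 38.6% of the fold, the peaks ranked next held 24.6% and all others 36.9%. A hotspot is the highest of its cluster by definition, so its share always exceeds the equal share. In clusters of 3 it had a median share of 44.0%, where an equal split would be 33.3%. In clusters of 5 it had 31.4% against 20%, in clusters of 7 it had 24.4% against 14.3%, and in clusters of 9 it had 19.5% against 11.1%. The share thus fell as peaks were added, while its size relative to an equal split rose from 1.32 times at 3 peaks to 1.83 times at 8 and 1.76 times at 9. The highest of more values tends to lie further above their mean, so this rise follows in part from the ranking.

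The rest of the strength declined gradually from rank to rank. In clusters of 3 the second and the third peak by fold had median shares of 31.9% and 23.3%. In clusters of 6 the median shares ran 27.4%, 19.6%, 16.5%, 13.8%, 11.8% and 9.40%. In clusters of 9 the weakest peak still held a median of 5.75%. The widest step was between the hotspot and the peak ranked next in each size from 3 to 9. Ranking folds of which a few are very high tends to make the first step the widest, so this follows in part from the ranking.

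**Figure D2:**
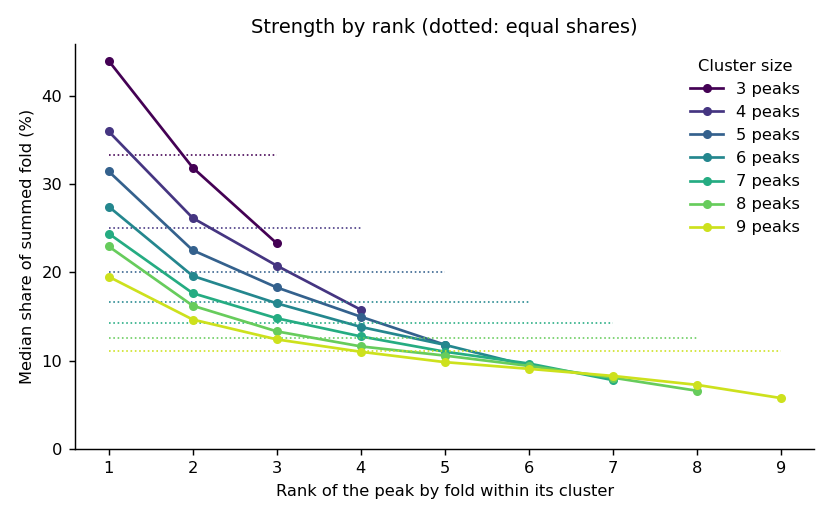
Median share of the cluster's summed fold (per cent) held by each peak, ranked by fold, for clusters of 3 to 9 peaks; dotted lines give the share if all peaks were equal. The hotspot holds 44.0% in clusters of 3 and 19.5% in clusters of 9, and lower ranks fall off by smaller steps.

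Most hotspots stood only a little above the next peak. The ratio of the hotspot's fold to the next had a median of 1.34 (quartiles 1.13 and 1.71), and it was much the same at each size, from 1.36 in clusters of 3 to 1.28 in clusters of 9. In 1279 clusters (34.9%, 33.3% to 36.4%) the hotspot was under 1.2 times the next peak, where 30.9% of all clusters of 2 or more peaks were. A total of 44 had an exact tie at the top. In 616 clusters (16.8%, 15.6% to 18.0%) the hotspot was at least 2 times the next, where 20.8% of all clusters of 2 or more were. Pairs, which were 4315 of those 8341 clusters, reached a ratio of 2 in 25.2% of cases and were under 1.2 in 25.6%. In a pair the next peak is also the lowest, so both contrasts depend in part on cluster size. The hotspot held over 50% of the summed fold in 578 clusters (15.7%), of which 449 were clusters of 3.

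Dominated and even clusters differed in median fold at the hotspot far more than at the other peaks. In the 616 clusters with a ratio of 2 or more the hotspot had a median fold of 26.6 (quartiles 20.4 and 36.3) and the other peaks 7.76 (6.28 and 9.67). In the 1279 even clusters the hotspot had 11.1 (9.20 and 14.3) and the other peaks 7.93 (6.58 and 10.06). The classes were cut on the ratio, so the difference between hotspots follows in part from the cut. Span and size were also alike, with medians of 12419 bp and 4 peaks in the dominated clusters and 13186 bp and 4 peaks in the even ones.

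The clusters of highest ratio of hotspot to next peak have weak neighbours by that choice, and they show how far a single peak can stand out. The cluster of 3 at chr19:42729682-42734928 had the highest ratio, 14.5. Its hotspot from 42734134 to 42734928 had a fold of 105.09 and 159 reads and held 88.8% of the summed fold, while the other peaks, 4881 and 2027 bp away, had folds of 7.25 and 5.95 from 15 and 9 reads. Next came the cluster of 5 at chr6:67409270-67431281, with a ratio of 14.1. Its hotspot, the first peak, had a fold of 99.73 and 151 reads, and the 4 peaks that followed over the next 21.7 kb had folds of 7.09, 6.77, 5.80 and 6.45. In both clusters every neighbour had at most 21 reads.

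Other clusters with a high ratio were built the same way. At chr5:65255879-65275729 a first peak of fold 76.39 (158 reads) was followed by peaks of 3.87, 6.04 and 7.27, the last 19.5 kb away. At chr9:103300904-103306235 the folds were 4.59, 3.87 and 44.94, with the hotspot last. At chr6:112351949-112360655 the hotspot came first with 68.74, followed by 7.35, 6.28 and 6.96. In all 5 clusters of highest ratio the hotspot was at one end of the cluster, but they are only 5, and the place of the hotspot over all clusters is given below.

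Larger clusters could also be dominated by a single peak. The cluster of 9 at chr16:94570495-94603522 spanned 33.0 kb, and the fifth peak, from 94582586 to 94582921, had a fold of 100.22 and 196 reads. The other 8 peaks had folds between 5.25 and 14.32, and the hotspot alone held 57.7% of the summed fold. A neighbour with a fold of 11.76 ended only 164 bp before it. The cluster of 4 at chr5:31295344-31306883 had folds of 14.99, 13.05, 102.37 and 11.48, so its weaker peaks were all above the list median of 8.59. Just outside the rule, the cluster of 10 with the highest hotspot, at chr6:101263793-101294989, had a fold of 58.71 over neighbours between 4.25 and 20.17.

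Some clusters held several strong peaks. In 177 clusters (4.82%) the peak ranked second also reached a fold of 20. The same share over all clusters of 2 or more peaks is not given here. The peak ranked second had a median fold of 8.92 in clusters of 3 and 12.43 in clusters of 9, so the share depends in part on cluster size. In these 177 clusters the strongest pair stood a median of 7040 bp apart (quartiles 2801 and 12173) and had a median ratio of 1.31. The highest summed fold, 198.08, belonged to the cluster of 6 at chr8:83327845-83350884. Its folds in order were 26.24, 100.03, 10.83, 32.36, 23.21 and 5.41, so that 4 of its 6 peaks reached 20 and the hotspot held 50.5%. The cluster of 5 at chr13:12404329-12430415 had a hotspot of 85.20 and a second peak of 54.86 that lay 14.8 kb apart, with a peak of 21.92 at lower coordinates and weak peaks of 7.27 and 5.32 between the strong pair. Here the strength sat at separate points and not around a single centre.

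In other clusters the strong peaks were close neighbours. At chr2:48171979-48183968, 7 peaks in 12.0 kb had folds of 61.11, 7.40, 39.36, 5.80, 15.36, 17.40 and 9.39, and the strongest pair was 1846 bp apart. The cluster of 8 at chr12:80988273-81008972 was built up towards its end. Its first 4 peaks had folds between 5.48 and 9.36, and its last 4 had 36.36, 13.05, 4.30 and 53.01. The peak of 4.30 is the only one there with a raised background, a term set out below. Another cluster on chromosome 12, of 9 peaks from 81184894 to 81225562, had its strongest peaks near its opposite ends, with 29.37 for the first peak and 45.12 for the eighth, 39.6 kb apart.

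**Figure D3:**
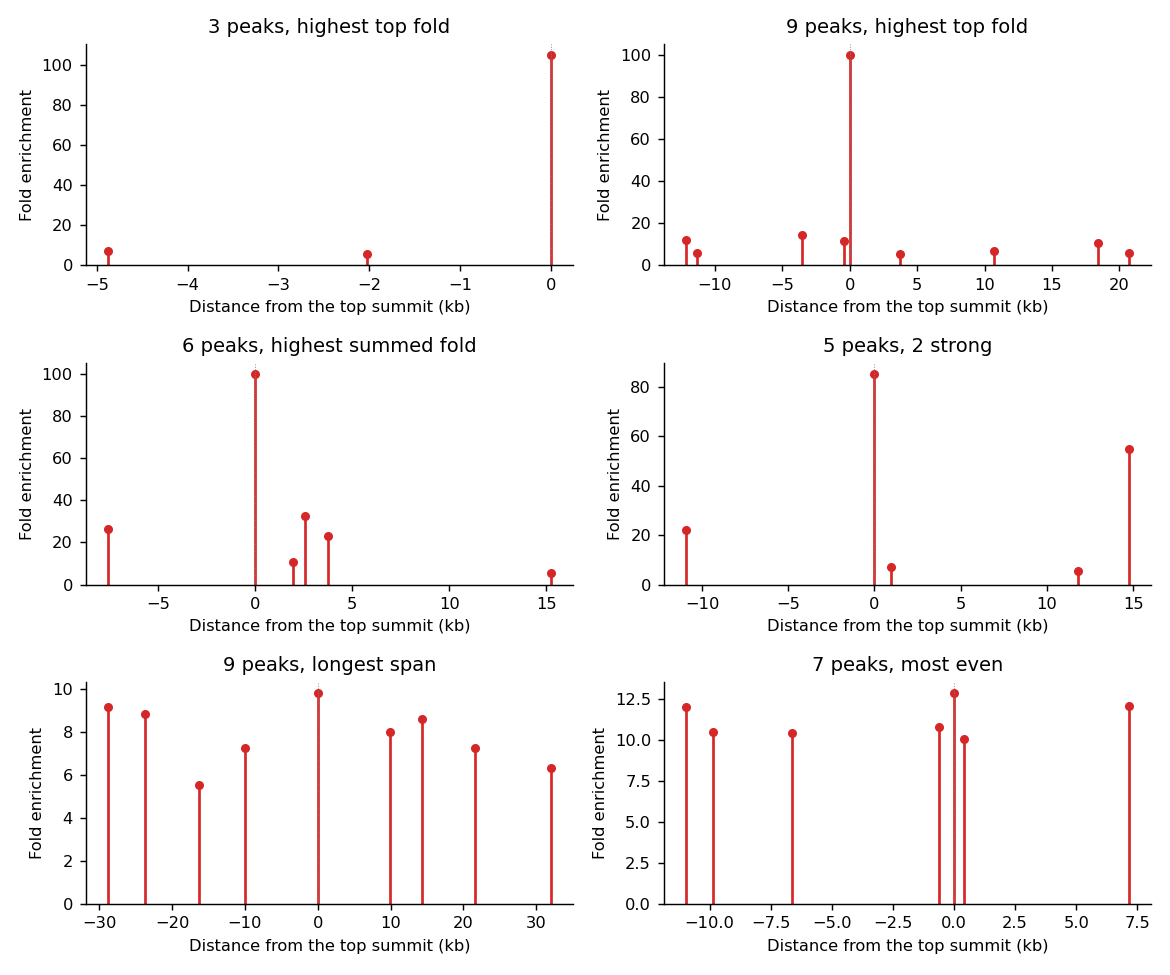
Fold enrichment (linear axis, scaled to each panel) against distance in kb from the hotspot's summit for 6 clusters: on chromosomes 19, 16, 8, 13, 18 and 9, in reading order. The first pair shows a lone hotspot of fold 105.09 and 100.22, the middle pair several strong peaks, and the last pair clusters whose folds differ by under 2 times.

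The most even of the clusters with 6 or more peaks had peaks of nearly the same fold. At chr9:66113664-66131981, 7 peaks had folds between 10.06 and 12.85, and the highest was 1.28 times the lowest. At chr8:28371740-28379881, 6 peaks had folds between 7.35 and 9.46 and one of them had a raised background. The clusters at chr16:20388623-20401064, at chr1:60544267-60556881 and at chr11:61700003-61714945 had hotspots of only 8.59, 8.24 and 9.14. In the cluster on chromosome 16 all 6 peaks had between 10 and 14 reads, so a difference of a few reads sets their order. In such clusters the name hotspot marks a rank and no more.

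No preferred place of the hotspot within the cluster was seen. It was the first or last peak in 1964 of 3670 clusters (53.5%, 51.9% to 55.1%), where 53.0% would be so if each place held it equally often. By size, it was at an end in 66.2% of clusters of 3 (equal places would give 66.7%), 52.3% of clusters of 4 (50%), 38.7% of clusters of 5 (40%) and 23.3% of clusters of 9 (22.2%). The interval included the equal-place value at each size from 3 to 9. The peak ranked second also showed no tendency to adjoin the hotspot: it was its direct neighbour in 53.6% of clusters (52.0% to 55.2%), for which equal places would again give 53.0%. The gaps beside the hotspot were close in length to the others. In the 1953 clusters of 4 or more peaks, 3079 gaps beside a hotspot had a median of 3324 bp (quartiles 1089 and 6697) and the 5120 other gaps 3280 bp (1135 and 6640).

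**Figure D4:**
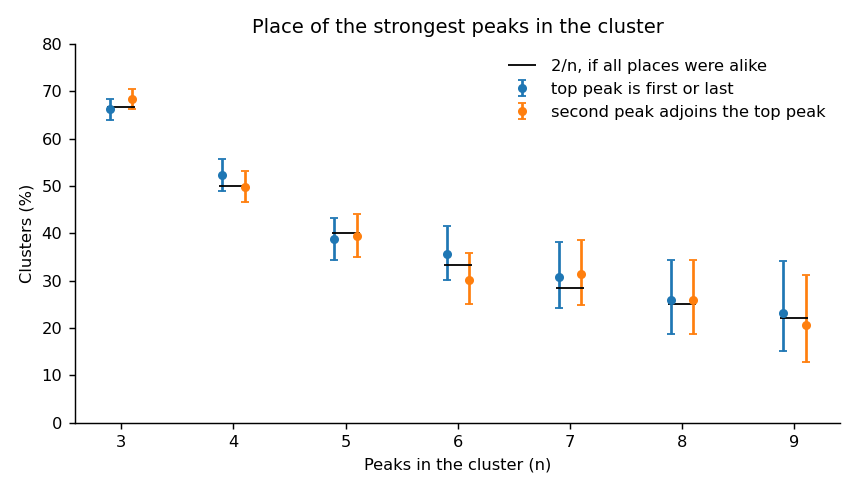
Share of clusters (per cent, with Wilson 95% intervals) whose hotspot is the first or last peak, and whose second peak adjoins the hotspot, by number of peaks n; black marks give 2/n, the share if all places were alike. The points follow the marks from 66.2% and 68.4% at 3 peaks to 23.3% and 20.5% at 9.

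The median fold of neighbours did not fall with their distance from the hotspot. The 378 neighbours with summits within 500 bp of the hotspot's had a median fold of 7.38 (quartiles 6.13 and 9.14), below that of farther neighbours. Their hotspots were also weaker, with a median fold of 13.2 against 14.83 to 18.41 at the other distances, and a neighbour cannot exceed its hotspot. From 1000 to 2000 bp the median was 7.93 (6.36 and 10.2), from 4000 to 8000 bp it was again 7.93 (6.53 and 10.0), and from 16000 to 32000 bp it was 8.12 (6.58 and 10.1). Counted in peaks, in clusters of 5 or more, direct neighbours had a median fold of 8.13 and those 4 peaks away 8.06. Beyond the first 1000 bp the medians thus stayed between 7.93 and 8.12.

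Stronger hotspots had neighbours of only slightly higher median fold. Where the hotspot's fold was from 10 to 15, the neighbours had a median of 7.74 (6.43 and 9.28). Where it was from 20 to 30 they had 9.02 (6.99 and 12.1), and over the 31 clusters with a hotspot above 60 they had 9.88 (7.27 and 14.0). The strongest neighbours changed more: 4.14% of neighbours (86 of 2078) reached a fold of 20 at hotspot folds of 20 to 30. Above 60, 12.1% did (15 of 124). A neighbour cannot exceed its hotspot, which holds neighbours down in clusters with weak hotspots. In the 931 clusters whose hotspot reached a fold of 20, the log2 hotspot fold and the log2 median fold of the neighbours had a Pearson r of 0.12 and a Spearman rho of 0.10. Over all 3670 clusters these were 0.51 and 0.53, given as a description since all points share a library and that bound. The hotspot's median share accordingly was 38.4% at hotspot folds of 10 to 15 and 57.2% above 60.

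**Figure D5:**
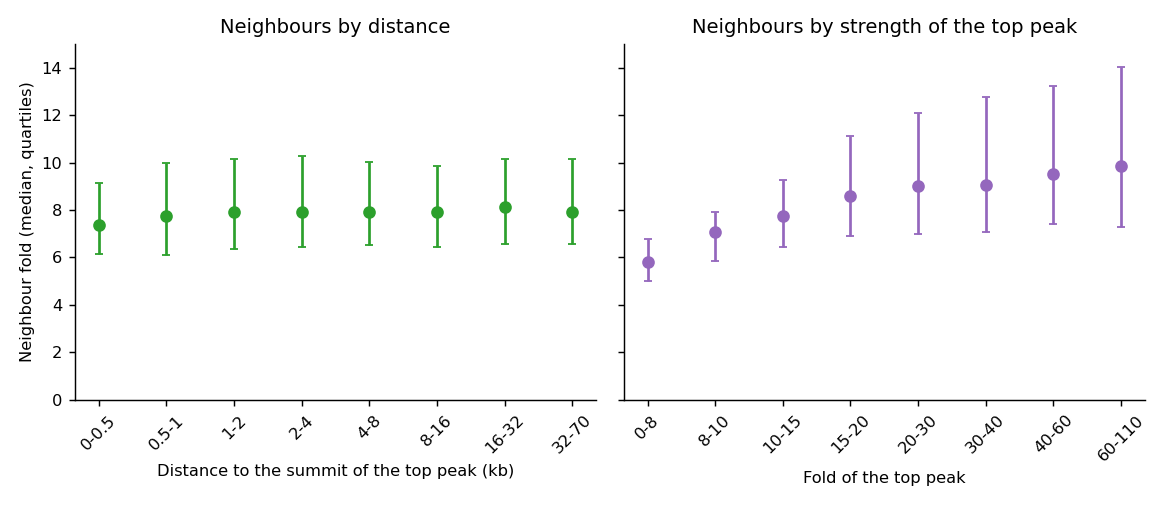
Fold of the non-hotspot peaks (points: medians, bars: quartiles) by distance in kb to the hotspot's summit, left, and by the hotspot's own fold, right. By distance the medians stay between 7.38 and 8.12, and by hotspot fold they go from 5.80 to 9.88.

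Of the 1135 members with a fold of 20 or more, 931 were hotspots and 204 were neighbours. That is 25.4% of hotspots (24.0% to 26.8%) and 1.75% of neighbours (1.53% to 2.01%), a split that the ranking fixes in part. No member reached that fold in 2739 clusters. Hotspots had a median of 29 reads at the summit (quartiles 21 and 44) and neighbours 17 (14 and 23). Hotspots were also wider, with a median of 251 bp (183 and 348) against 181 bp (139 and 246). The smallest width in the list, 122 bp, was held by 2.75% of hotspots and 13.2% of neighbours. Width and reads come from the same pileup as the fold and are no independent evidence.

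Neighbours were nearer to the calling limit. A total of 2478 neighbours (21.3%) and 24 hotspots (0.654%) had a −log10 q-value under 5, as did 17.4% of all myotube peaks. The q-value comes from the same reads and background as the fold, so the ranking fixes this split in part. The median background was 1.94 reads under hotspots and 2.07 under neighbours, where the most frequent background in the list, its floor, was 1.51 reads. A background over 3 times that floor is called raised. It was found at 66 hotspots (1.80%, 1.42% to 2.28%) and 606 neighbours (5.21%, 4.82% to 5.63%), against 3.58% of all myotube peaks. Fold is reads divided by background, so the ranking itself depends on the background.

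In 541 clusters (14.7%) at least 1 peak had a raised background. In 13 clusters all peaks did, with a median background of 19.1 reads, and their hotspots had a median fold of only 5, against 14.5 in the 3129 clusters with none. The 13 include the mitochondrial genome, where 3 peaks over a median background of 224 reads had folds between 2.11 and 2.38 and the cluster spans 15 to 16286. Across the 13, the hotspot was a median of 1.18 times the next peak. Leaving peaks of raised background out before joining gave 3464 clusters, with a median hotspot share of 39.2% and a median ratio of 1.33. Leaving them out of both lists lowered the share of members that overlapped a myoblast peak from 0.353% to 0.191%. The results on place, gaps and distance were not repeated without them.

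A few members were also listed in myoblasts, whose list held only 501 peaks against 45457 in myotubes. So short a list keeps every share below low, and a missing myoblast peak does not show that FoxO3 was absent. Of the 501 myoblast peaks, 56 overlapped a member. Of the 15303 members, 54 (0.353%, 0.271% to 0.460%) overlapped a myoblast peak by at least 1 bp, where 0.224% of all myotube peaks did. They lay in 42 clusters and were 52.9% of the 102 myotube peaks with such an overlap. The share was 0.238% (0.169% to 0.334%) for isolated peaks, 0.116% (0.0630% to 0.213%) for pairs and 0.159% (0.0679% to 0.372%) for clusters of 10 to 19. In clusters of 20 or more it was 0 of 4504, which allows a share of up to 0.0666% (3 counts). Of the 54, however, 26 had a raised background. Without raised background in either list 28 of 14631 members overlapped (0.191%, 0.132% to 0.276%), where 0.130% of all such myotube peaks did, and isolated peaks had 0.127% (0.0794% to 0.203%), pairs 0.0846% (0.0410% to 0.175%) and clusters of 10 to 19 peaks 0.163% (0.0695% to 0.380%). The intervals of these classes overlap that of the members. In clusters of 20 or more it was 0 of 4470 (Wilson upper bound 0.0859%, and up to 0.0671% from 3 counts). This class also lowers both shares over the whole list. The intervals count peaks as separate, although those of clusters of 20 or more lay in only 107 clusters. Per cluster, 42 of the 3670 member clusters held an overlap, but clusters of 20 or more hold many more peaks each, so the per-cluster counts are not alike. Whether the 0 sets this class apart was not tested.

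Every cluster with more than 1 overlap held a peak of raised background. Overlaps numbered 1 in 35 clusters and more than 1 in 7. Of these 7, the clusters at chr17:39979932-39985733, at chr2:98502399-98507494, at chr9:3000336-3002231 and at chr9:3020434-3035125, and on the mitochondrial genome had raised background at all peaks. The other clusters, at chr11:48667016-48671821 and at chr13:44963549-44965431, had it at 1 and 2 of their 3 peaks. Hotspots made up 18 of the 54 overlaps (0.490% of hotspots, 0.310% to 0.774%) and neighbours 36 (0.309%, 0.224% to 0.428%). Without raised background these were 10 (0.277%, 0.151% to 0.510%) and 18 (0.163%, 0.103% to 0.258%). The myoblast list had a further 29 peaks inside the span of a cluster that met none of its peaks.

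The strongest clusters with an overlap differed in which peak was shared. At chr14:75219947-75246709 the shared peak was the hotspot, with a fold of 87.02 (135 reads) in myotubes and 22.53 (10 reads) in myoblasts, while its 6 neighbours had myotube folds between 5.32 and 11.90 and no myoblast peak. At chr11:115138441-115153289 it was again the hotspot, with 32.88 in myotubes and 14.67 (8 reads) in myoblasts. At chr8:97093203-97126102 the shared peak was the one ranked second, of fold 25.53, with a myoblast fold of 20.28 (9 reads), and the hotspot of 34.37 had none. At chr19:3912799-3929931 a weak peak of fold 5.80, 86 bp before the hotspot of 36.36, met a myoblast peak of 7 reads. At chr2:5300264-5303211 the shared peak was not the hotspot of 56.47 but a neighbour of 6.27 with a background of 25.8 reads, raised in both lists. Folds of separately called lists are set side by side without a test, and the median over all myoblast peaks was 8 reads.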

How the data were processed

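FoxO3 ChIP-seq was deposited as 1 peak list per library, each with 1 library per group. MACS2 2.1.0 and build mm9 are named per the submitters' processing notes; aligner, control and read filters were not given in the sources used here. The lists are narrowPeak tracks, per the file headers. For every peak the authors deposited the summit's offset, its fold enrichment (a ratio), the −log10 of its p-value and of its q-value, and a score that proved to be a rounded-down multiple of the latter. Total depth is unknown. Summit reads were recovered as the whole number whose Poisson tail at reads over fold was nearest the deposited −log10 p. A match was accepted within 0.02 beyond what the rounding of the deposited fold and −log10 p allows. This held for 45457 of 45457 myotube and 501 of 501 myoblast peaks. The method and the joining were tested on simulated data.

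Peaks were joined at 12000 bp. Spans, gaps, ranks and shares were computed with pandas 2.3.3, scipy 1.17.1 and numpy 2.4.6 under Python 3.11.15, and drawn with matplotlib 3.10.9. Intervals are Wilson at 95%, and overlap means at least 1 bp. The members and lists were chosen with earlier results of these data known. Regions were named by rule: highest hotspot per size, then 5 each by highest ratio, evenness (6 or more peaks), summed fold and myoblast overlap, the longest and shortest spans at 3 and 9 peaks, and the cluster of 10 with the highest hotspot. The gene and promoter tables at hand are for another build, so the planned gene positions and motifs, and any sequence, were not used here. Alternatives were other joining distances, a q-value threshold, other measures of strength and another overlap rule; leaving out raised background before joining, the smallest width or the mitochondrial genome was chosen after seeing the data.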

Additional observations from a re-analysis of the deposited data

How the results depend on the processing

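Each value rests on 1 library, and with a median of 17 reads at a neighbour the order of weak peaks is loose. Joining at 5 kb gave 2393 clusters, a median span of 5606 bp, a median gap of 1531 bp and a median hotspot share of 40.4%. Joining at 25 kb gave a span of 27977 bp, a gap of 6685 bp and a share of 37.3%. Among peaks whose −log10 q-value reached 5, the median ratio of hotspot to next peak was 1.32. With −log10 p as the measure of strength the share was 43.0% and the ratio 1.52, and with fold times width the share was 45.6%. Leaving out peaks of the smallest width gave a share of 39.6%. Without raised background in both lists 0.191% of members overlapped a myoblast peak. The joining distance bounds gaps and spans by construction; the cause of the other moves was not tested. These are 13 of 31 alternative values, and the other 18 stayed within the interval or within 1.5 times of the reported value, among them the share and ratio with recovered reads as strength (39.1% and 1.34). No paired analysis was possible because neither stage had a second library.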

Other observations

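Clusters often had further peaks nearby, beyond the joining distance. The nearest peak outside a cluster lay a median of 19598 bp from its edge (quartiles 14809 and 29945), and for 2426 clusters (66.1%) it lay within 25000 bp. That nearest peak was an isolated one for 1929 clusters (52.6%) and belonged to a cluster of 10 or more for 108 (2.94%). The tenth of clusters with the highest summed fold, 367 in number, held 21.7% of the fold of all clusters.

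The part of a chromosome's peaks that fell into clusters of 3 to 9 differed between chromosomes. Among the 19 autosomes it went from 28.0% on chromosome 18 (25.5% to 30.6%) to 40.3% on chromosome 11 (38.7% to 42.0%), and on chromosome X it was 18.9% (16.3% to 21.8%), from 146 of 774 peaks. The intervals count peaks as separate, although peaks enter as whole clusters (34 on chromosome X), and no difference between chromosomes was tested. With a fixed joining distance the share also depends on how densely peaks lie. The median ratio of hotspot to next peak varied little, from 1.27 on chromosome 7 to 1.38 on chromosome 17 among the autosomes and 1.31 on chromosome X.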
